A study of Mus musculus with 2 samples.

Results

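The genes of the mouse proteasome were examined here: the subunits of its core, of its regulatory particle and of its activators, together with the chaperones that assemble them and an inhibitor. Members were the protein-coding genes whose GENCODE M21 symbol starts with Psm, then 1 letter from a to g, then a digit. The rule found 50 genes among the 42462 gene rows that matched that annotation. Of these, 14 encode the constitutive core, 3 the immune core, 2 tissue-restricted core subunits, 17 the regulatory particle, 7 assembly chaperones, 5 activators and 1 an inhibitor. Psmc3ip, a recombination factor, fits the rule by its name alone and is no proteasome subunit.

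The RNA came from G1E-ER4, an immortalized line labelled as male C57BL/6J that serves as a model of erythroid precursors. Its own Gata1 is missing, and an introduced form of this erythroid transcription factor acts in the presence of estradiol. All cells in the study had been given 10 nM 17beta-estradiol for 24 h, and each of the 2 libraries of ribosomal-RNA-depleted total RNA came from its own labelled biological replicate. Untreated cells were not analysed here. The values are therefore levels, ratios within a library and differences between the replicates, and no effect of estradiol was measured.

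The proteasome is the main protease of the cytosol and nucleus, and it degrades proteins that carry ubiquitin chains. Its core is a barrel of stacked alpha and beta rings with the active sites inside. The regulatory particle caps the barrel, binds the ubiquitin chain, removes it, and unfolds and threads the substrate with a ring of ATPases. In cells exposed to interferon gamma and in many immune cells, 3 inducible beta subunits replace the catalytic ones and form the immunoproteasome, which alters the peptides offered to MHC class I. Erythroid precursors use ubiquitin-dependent degradation while they discard organelles and proteins that the red cell does not keep.

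The libraries summed to 62081014 (replicate 1) and 41051163 (replicate 2) expected counts. Values are in deposited TPM (a share of the library's transcripts, scaled by length) unless another unit is named, and all values given for both libraries are of replicate 1 and then replicate 2. Genes of the nucleus that encode proteins held 14.1% and 14.4% of all TPM, so a TPM of 1 here is about 7.09 or 6.95 on a scale of these genes alone. All 12 erythroid markers reached 1 TPM in both libraries, with Gata1 at 60.1 and 73.2 TPM. The Gata1 rows do not separate the introduced form from the chromosomal gene. No marker of the lists of 10 lymphoid, 10 myeloid, 6 antigen-presenting and 8 stromal or endothelial genes reached that level. The summed level of the myeloid list was 0.52 and 1.81 TPM, that of the lymphoid list 0 and 0.07 TPM, and that of the antigen-presenting list 0.02 and 0.06 TPM. Among 6 megakaryocyte markers, Gp1ba and Itga2b passed 1 TPM in each library, and the list summed to 4.5 and 4.12 TPM.

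The promoters of 3 members are printed because the results turn on these genes: Psmb9 of the low immune core, Psmb6, the constitutive subunit it replaces, and Psmd4, the most abundant member. Each runs 5′ to 3′ on the strand of the gene from 250 bases before to 50 after the RefSeq start (GRCm38.p6). Capitals mark matches, on either strand, to any of 8 motifs: GATAA (the core of a GATA factor site), CCAAT (the CCAAT box), TATAAA (the TATA box), GGGCGG (the GC box), CCGGAAGT (an ETS factor site), and, by name, the palindrome of the factor NRF1, the core of an antioxidant response element and the core of an interferon-stimulated response element. NRF1 here is nuclear respiratory factor 1 and is not Nfe2l1, the factor of proteasome transcription named further below. The Psmb9 window lies at chr17:34187281-34187580 on the minus strand, that of Psmb6 at chr11:70525107-70525406 on the plus strand, and that of Psmd4 at chr3:95042565-95042864 on the minus strand.
Psmb9: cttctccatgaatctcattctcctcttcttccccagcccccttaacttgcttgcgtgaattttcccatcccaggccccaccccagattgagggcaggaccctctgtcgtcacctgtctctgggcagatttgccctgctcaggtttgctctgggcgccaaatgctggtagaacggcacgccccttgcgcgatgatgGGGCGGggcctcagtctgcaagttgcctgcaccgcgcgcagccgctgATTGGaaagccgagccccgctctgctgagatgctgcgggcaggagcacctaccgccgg
Psmb6: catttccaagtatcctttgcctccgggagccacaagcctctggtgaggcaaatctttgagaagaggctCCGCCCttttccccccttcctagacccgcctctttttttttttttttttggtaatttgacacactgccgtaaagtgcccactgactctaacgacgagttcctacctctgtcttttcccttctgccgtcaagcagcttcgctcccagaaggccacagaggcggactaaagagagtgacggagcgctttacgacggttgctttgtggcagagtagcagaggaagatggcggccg
Psmd4: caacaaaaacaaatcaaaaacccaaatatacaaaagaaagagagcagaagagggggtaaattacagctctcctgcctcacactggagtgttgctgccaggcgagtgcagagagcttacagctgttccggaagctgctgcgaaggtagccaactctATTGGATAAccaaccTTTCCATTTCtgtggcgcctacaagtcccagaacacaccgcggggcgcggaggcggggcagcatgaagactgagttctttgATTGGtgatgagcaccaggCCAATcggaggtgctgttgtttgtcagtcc
The Psmb9 window holds 1 GC box and, next to the start, 1 reversed CCAAT box. The Psmb6 window holds 1 reversed GC box and none of the other 7 motifs. The Psmd4 window holds 3 CCAAT boxes, 2 of them within 25 bases after the start, and 1 interferon response core. Its single GATAA overlaps the first reversed CCAAT box. No match to the interferon response core lies in the Psmb9 window. This window lies wholly inside the gene as annotated in GENCODE M21 (34181987 to 34187764), so sequence before that 5′ end was not searched.

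The subunits of the 26S particle were well expressed, while other members ranged down to 0 counts. Of the 50 members, 46 reached 1 TPM in both libraries, against 36.3% of the 21461 nuclear protein-coding genes, and 36 reached 10 TPM in both, against 12.1%. The 4 that did not reach 1 TPM were Psmb8, Psmb9, Psma8 and Psmb11, all core subunits of restricted expression. On the scale of nuclear protein-coding genes alone, 47 reached 1 TPM, Psmb9 being the one added. Some of the 46 stood low among expressed genes: Psmg1 lay above 36.6% and 36.3% of them and Psme2b above 10.8% and 9.25%. Together the members held 0.987% and 0.995% of the TPM of nuclear protein-coding genes. The 31 subunits of the 26S particle with a Psm symbol (constitutive core and regulatory particle) held 0.846% and 0.868%. Adrm1 and Sem1, subunits of the regulatory particle without a Psm symbol, are left out of all values for 26S subunits, base and lid. Both stood below the median of the 31. The median 26S subunit stood at 35.4 and 40.3 TPM, against 6.39 and 6.35 TPM for the 7735 other expressed genes, meaning nuclear protein-coding genes at 1 TPM or more in both libraries. The difference of the medians was 2.57 ± 0.14 on the log2 scale (SD, n = 2), or 5.93-fold. All 31 lay above the median of the other expressed genes in both libraries, and 28 lay above their 75th percentile. An exact sign-flip test over 2 libraries cannot give a two-sided p under 0.5. Differences between classes therefore carry no p and are set against their SD over the libraries.

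**Figure D1:**
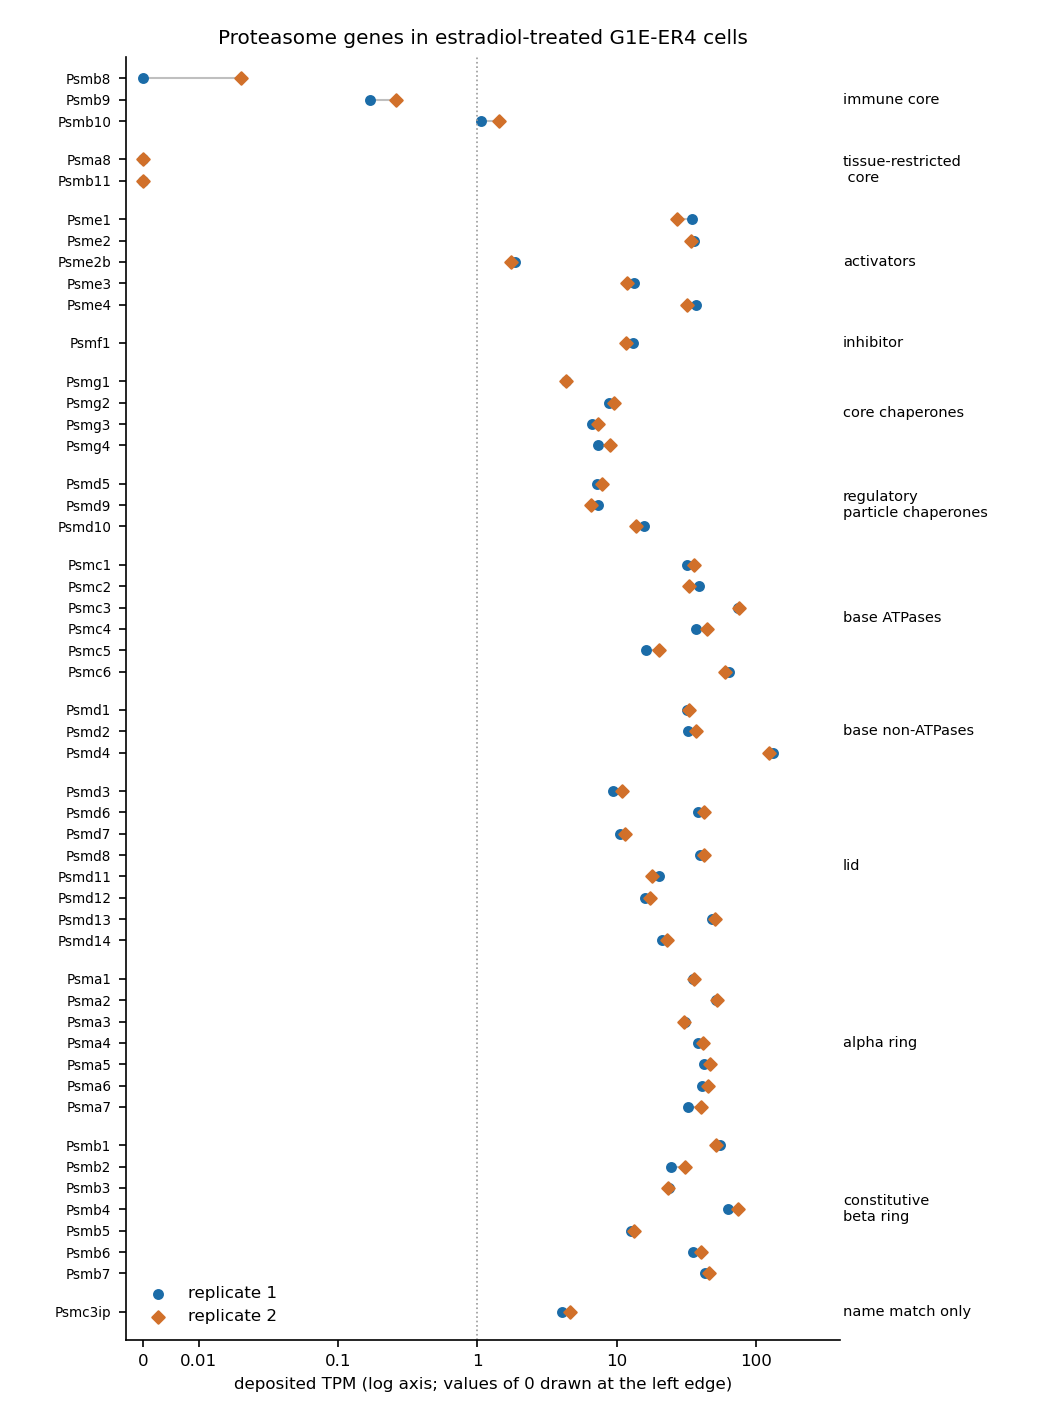
Deposited TPM of each of the 50 members on a log axis, by class, with a circle for replicate 1 and a diamond for replicate 2 and values of 0 at the left edge. The dotted line marks 1 TPM: 46 members lie right of it in both libraries, while Psmb8, Psmb9, Psma8 and Psmb11 lie left of it.

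The 26S subunits also kept to a narrow band. Their interquartile range was 1.77-fold and 1.75-fold, against 4.89-fold and 4.86-fold for other expressed genes. In both libraries 23 of 31 subunits lay within 2-fold of the subunit median, or 74.2%, and 40.3% of other expressed genes lay that near to theirs. The lowest and the highest were 9.34 and 133 TPM in replicate 1 and 10.95 and 124 TPM in replicate 2, held in both libraries by Psmd3 and Psmd4. Across the 31 subunits, log2 TPM in the libraries had a Pearson r of 0.986 and a Spearman rho of 0.978. This is a description across genes, which are no independent replicates and share their libraries. Level and log2 effective length were weakly related across the subunits (r -0.152, rho -0.199).

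**Figure D2:**
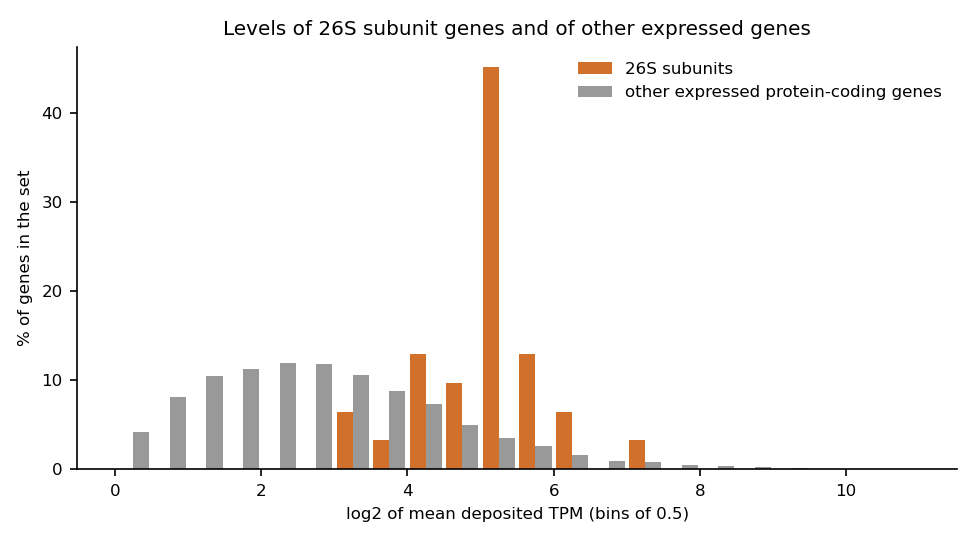
Share of the 31 subunits of the 26S particle (orange) and of 7735 other expressed nuclear protein-coding genes (grey) in bins of 0.5 of the log2 of mean TPM. The bin from 5 to 5.5 holds 14 of the subunits and 3.45% of the other genes.

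The alpha ring, which forms the gate of the barrel, had the narrowest range of any class of 3 or more genes. Its 7 genes spanned 30.8 to 51.6 TPM in replicate 1 and 30.3 to 52.0 TPM in replicate 2, so that the highest mean was 1.70 times the lowest. Psma2 was the highest, at 51.6 and 52.0 TPM. Psma3 was the lowest, at 30.8 and 30.3 TPM. Between them stood Psma5 (42.5 and 46.9 TPM), Psma6 (41.2 and 45.5 TPM), Psma4 (38.3 and 41.4 TPM), Psma7 (32.5 and 40.5 TPM) and Psma1 (35.3 and 36.0 TPM). The spread between libraries is as wide as the gaps among several of these: Psma7 ranked below Psma1 in replicate 1 and above it in replicate 2.

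The constitutive beta ring had a wider range. Psmb4, a structural subunit without an active site, was the highest at 63.2 and 73.6 TPM. Psmb5, which carries the chymotrypsin-like site, was the lowest at 12.6 and 13.2 TPM, 5.30 times below Psmb4 by the means. The other catalytic subunits were well above Psmb5 in both libraries. Psmb6, the caspase-like subunit, stood at 35.4 and 40.3 TPM. Psmb7, the trypsin-like subunit, stood at 43.3 and 45.8 TPM. The structural Psmb1 was at 54.7 and 51.8 TPM, Psmb2 at 24.6 and 30.7 TPM and Psmb3 at 23.8 and 23.3 TPM. Thus the RNA for the 3 catalytic sites, which the particle holds in equal number, differed by 3.45-fold between Psmb7 and Psmb5 in means, more than the libraries differed for any of the 3.

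The immune core was far below the constitutive core at the RNA level, and of its 3 genes only Psmb10 reached 1 TPM. Psmb8 (chromosome 17, 34197721 to 34201454, plus strand), which replaces Psmb5 in the immunoproteasome, had 0 counts in replicate 1 and 2 counts in replicate 2. Against Psmb5 this is at least 1072-fold lower in replicate 1, with an absence of reads taken as a floor of 3 counts. In replicate 2 it is 561-fold lower, with a 95% exact Poisson interval of 155 to 4629, taken from the Psmb8 count alone. The effective length of Psmb8 was 1247 and 596 bases, so the floor in replicate 1 and the ratio in replicate 2 hold only at these lengths. Intervals and floors cover counting error only, since the reads carry no molecular identifiers.

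Psmb9 (chromosome 17, 34181987 to 34187764, minus strand), the partner that replaces Psmb6, was at 0.17 and 0.26 TPM from 33 and 22 counts. Its effective length was 953 and 584 bases, and on counts scaled to library size the libraries were alike (log2 -0.02). The retained-intron transcript Psmb9-201 was given 34.6% and 36.2% of these counts. Psmb6 was at 35.4 and 40.3 TPM from 4268 and 3267 counts. The log2 ratio of Psmb9 to Psmb6 was -7.49 ± 0.30 (SD, n = 2), or 180-fold lower. Psmb10 (chromosome 8, 105935735 to 105938444, minus strand), which replaces Psmb7, was the one immune subunit at 1 deposited TPM in both libraries. It stood at 1.06 and 1.42 TPM, from 232 and 213 counts, against 43.3 and 45.8 TPM for Psmb7. The log2 ratio of Psmb10 to Psmb7 was -5.18 ± 0.24 (SD, n = 2), or 36.3-fold lower. Psmb8 made up at most 0.0932% of its pair with Psmb5 in replicate 1, at the floor of 3 counts and the effective length of that library. In replicate 2 it made up 0.178%, on 2 counts. The other immune partners made up 0.479% and 0.641% of the Psmb9 and Psmb6 pair, and 2.39% and 3.01% of the Psmb10 and Psmb7 pair. The class medians were 0.17 and 0.26 TPM in the immune core, against 36.8 and 40.9 TPM in the constitutive core, a log2 difference of -7.53 ± 0.33 (SD, n = 2). In bulk RNA, few cells with much of a transcript and many cells with little of it cannot be told apart.

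An exon of Psmb9 is overlapped on the opposite strand by Tap1 (chromosome 17, 34187553 to 34197225, plus strand), a subunit of the transporter that carries peptides from the cytosol to MHC class I. Psmb8 and Psmb9 lie 9956 bp apart. Whether strand was used in the counting is not given in the sources used here, so reads of Psmb9 and Tap1 in the shared stretch cannot be told apart. Tap1 was itself low, at 0.55 and 0.52 TPM. The summed marker levels of other blood cells are as given above, the myeloid list being higher in replicate 2; their part in the few immune core reads was not tested.

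Both tissue-restricted core subunits were at the floor. Psma8, an alpha subunit of the testis, had 0 counts in both libraries, at least 3317-fold and 2829-fold lower than Psma7. Psmb11, the thymic beta subunit, had 1 count in replicate 1 and 0 in replicate 2. On that single count it was 10432-fold below Psmb5, a ratio known only within its interval of 1872 to 412024, and the floor puts it at least 2527-fold lower in replicate 2. Psmb11 lies 3410 bp from Psmb5, so that on this stretch of chromosome 14 a gene at 12.6 and 13.2 TPM adjoins one with 1 read in both libraries together.

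The regulatory particle was expressed close to the constitutive core. The medians were 32.5 and 35.8 TPM in its 17 genes with a Psm symbol, against 36.8 and 40.9 TPM in the 14 core genes. The log2 difference was -0.19 ± 0.01 (SD, n = 2). On expected counts that are not divided by length, where longer transcripts weigh more, the difference turned to 0.38 ± 0.11. Its summed TPM was larger, at 663 and 678 TPM against 530 and 571 TPM for the core, and Psmd4 alone gave 133 and 124 TPM of it.

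Among the base ATPases, which unfold the substrate, Psmc3 and Psmc6 were the most abundant. Psmc3 stood at 73.6 and 75.4 TPM and Psmc6 at 64.2 and 60.0 TPM. Psmc5 was the lowest, at 16.1 and 20.2 TPM, so that genes whose proteins meet in a ring of 1 copy each differed by 4.10-fold in means. Psmc1 (32.0 and 35.8 TPM), Psmc2 (39.2 and 33.0 TPM) and Psmc4 (37.3 and 44.3 TPM) lay between, and their order was not the same in the libraries.

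Of the base subunits that are not ATPases, Psmd4, a receptor for ubiquitin chains, was the most abundant of all members. It was measured at 133 and 124 TPM (chromosome 3, 95032694 to 95042614, minus strand), 3.77 and 3.08 times the median 26S subunit. This level lay above 98.1% and 97.8% of all expressed genes, members included. Psmd1, a scaffold of the base, stood at 31.9 and 33.0 TPM. Psmd2, which docks ubiquitin-like domains, stood at 32.5 and 36.8 TPM. Both were close to the median subunit and far below Psmd4, by more than the replicate spread.

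The lid, which removes ubiquitin from the substrate, was the lowest class of the particle. Its 8 genes with a Psm symbol had medians of 20.6 and 20.3 TPM. Psmd14, the deubiquitinating enzyme, stood at 21.2 and 22.8 TPM. Psmd7, the inactive partner with which it pairs, was at 10.6 and 11.5 TPM. Of the 6 scaffold subunits of the lid, Psmd13 was the highest at 48.3 and 50.5 TPM. Psmd8 (39.3 and 42.2 TPM) and Psmd6 (38.4 and 42.3 TPM) were near the median of the 26S particle, while Psmd11 (20.1 and 17.9 TPM) and Psmd12 (16.0 and 17.2 TPM) lay below it. Psmd3 was the lowest 26S subunit in both libraries at 9.34 and 10.95 TPM, and the only one of the 31 under 10 TPM in a library.

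The assembly chaperones, which help the particle form and do not stay in it, were lower than what they assemble. Their 7 genes had medians of 7.33 and 7.82 TPM, against 36.8 and 40.9 TPM for the constitutive core, a log2 difference of -2.36 ± 0.04 (SD, n = 2) or 5.13-fold lower. Psmg1 and Psmg2, which pair to start the alpha ring, stood at 4.31 and 4.32 TPM and at 8.72 and 9.51 TPM. Psmg3 and Psmg4, a second pair, stood at 6.68 and 7.38 TPM and at 7.33 and 8.96 TPM. Of the chaperones of the base, Psmd10, also called gankyrin, was at 15.8 and 13.8 TPM, Psmd5 at 7.15 and 7.82 TPM and Psmd9 at 7.35 and 6.49 TPM. Only Psmd10 of the 7 reached 10 TPM in both libraries. Pomp, the maturation factor of the core that carries no Psm symbol, was far above them at 66.4 and 68.3 TPM.

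The activators bind the ends of the core in place of the regulatory particle. Their median was 34.7 and 27.2 TPM, against 36.8 and 40.9 TPM for the constitutive core. The log2 difference of -0.34 ± 0.36 (SD, n = 2) was smaller than its spread, being -0.08 in replicate 1 and -0.59 in replicate 2. Psme2 and Psme1, which form a mixed ring and are inducible by interferon gamma, were at 36.1 and 34.0 TPM and at 34.7 and 27.2 TPM. Their log2 ratio, Psme2 to Psme1, was 0.19 ± 0.19, equal to its spread when rounded, and on counts not divided by length it turned to -0.075. They lie 5911 bp apart on chromosome 14. Psme1, the lower of this inducible pair, stood above 90.1% and 87.3% of all expressed genes, members included. Psmb10, the highest of the immune core, stood above 0.45% and 4.79% of them.

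Psme3, the nuclear activator that forms a ring of its own, stood at 13.2 and 11.9 TPM. It was 2.45-fold lower than Psme1 per length (log2 -1.29 ± 0.14), while on counts not divided by length the sign turned to 0.19 ± 0.18. Psme4, the large monomeric activator, stood at 37.2 and 32.0 TPM, 2.75-fold higher than Psme3 (log2 1.46 ± 0.04). Psme2b, a copy of Psme2, was listed at 1.86 and 1.75 TPM from 242 and 154 counts. The deposited posterior SD of its count, 12.6 and 10.8, is the same number as that of Psme2, so the counting shared reads between the copies and the value of Psme2b is uncertain. Psmf1, the inhibitor that binds the core, was at 13.1 and 11.7 TPM. Psmc3ip was at 4.05 and 4.62 TPM.

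The genes were also compared between the replicates, on CPM (counts scaled to library size) with TMM factors, for the 46 members with a mean count of at least 100. None differed by 1.5-fold or more in either direction, against 4.99% of 9722 genes that were higher in replicate 2 by that much and 2.8% that were higher in replicate 1. The largest difference was that of Psmb10, 1.36-fold higher in replicate 2. The 26S subunits leaned to replicate 2: 26 of 31 were higher there by some amount, against 48.3% of all genes tested. Their median log2 ratio was 0.13, against -0.01 for all genes. It was 0.13 with DESeq2 size factors, 0.16 with library totals and 0.10 on TPM, where the medians of all genes were -0.01, 0.02 and -0.03. The subunits furthest towards replicate 2 were Psmc5 (log2 0.35), Psma7 (0.33) and Psmb2 (0.32), and the one furthest towards replicate 1 was Psmc2 (-0.22). With 1 library a side this lean has no test. For Psme3 the sign depends on the unit: it was higher in replicate 2 on CPM (log2 0.13) and lower on TPM, with an effective length of 1875 and 2225 bases in the libraries.

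The summed level of the 12 erythroid markers was also higher in replicate 2, at 2814 and 3816 TPM. Hbb-bs, the adult beta globin, was at 985 and 1629 TPM and the transferrin receptor Tfrc at 165 and 210 TPM, while Klf1 was at 28.1 and 27.6 TPM. The part of this in the lean of the subunits was not tested. To see whether 1 library had been deposited under 2 names, the counts of the 31 subunits were compared. The chi-square of 35.8 per degree of freedom (30 degrees of freedom) shows that they are not the same library and nothing more.

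**Figure D3:**
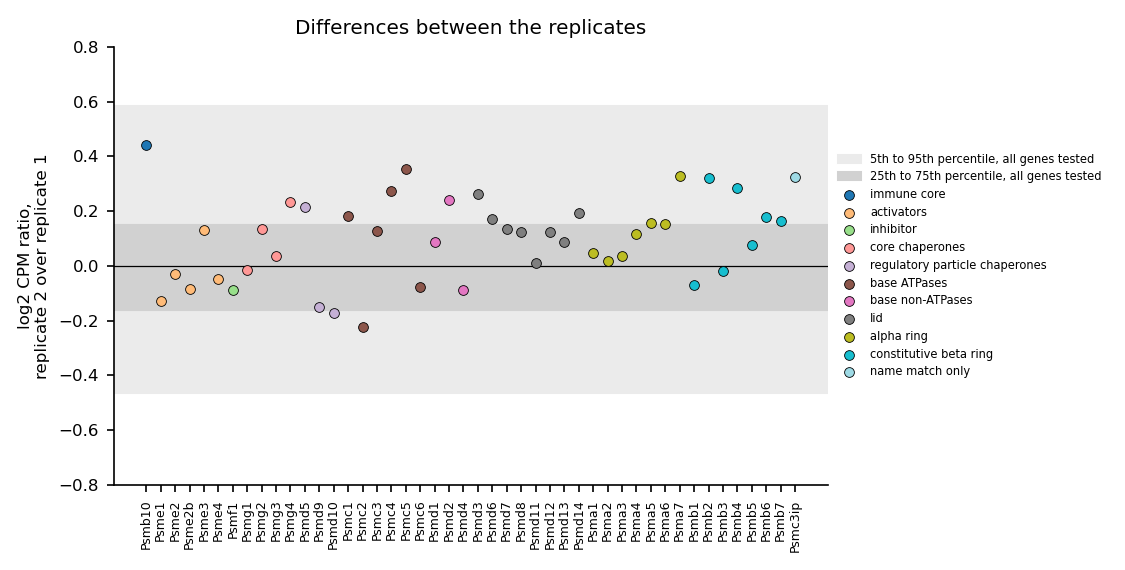
Log2 ratio of TMM-scaled CPM, replicate 2 over replicate 1, for the 46 members with a mean count of at least 100, coloured by class, over the 5th to 95th (light grey) and 25th to 75th (dark grey) percentiles of 9722 genes. All 46 lie inside the light band, between -0.22 for Psmc2 and 0.44 for Psmb10, and more points lie above 0 than below it.

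Transcript shares, given as the percent of a gene's TPM, were dominated by 1 transcript in most members. Of the 46 expressed members 9 have 1 transcript in the tables and 37 have several. Over these 37 the median share of the leading transcript was 89.7%, against 66.6% for other expressed genes with several. In 4 members the leading transcript held under 50% of the gene, against 20.3% of other expressed genes. They were Psma3, Psmd11, Psmd13 and Psmf1. Short transcripts can hold large TPM shares on few counts, and by share of counts 3 genes, Psma3, Psmd11 and Psmd13, had no transcript with 50%.

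In Psmd13 the leading transcript is not annotated as protein coding. Psmd13-211, annotated as a target of nonsense-mediated decay, held 36.3% and 38.1% of Psmd13, ahead of the coding Psmd13-208 at 29.6% and 28.0%. It was given 3215 and 2402 counts. The deposited credible interval of the Psmd13 level was wide, 47.3 to 56.9 TPM and 49.2 to 74.8 TPM, so the division of reads among its transcripts is uncertain. In Psma3 the decay-annotated Psma3-201 held 23.6% and 33.9%, the coding Psma3-204 31.9% and 21.9% and the retained-intron Psma3-203 29.7% and 19.3%. Psma3-204 led in replicate 1 and Psma3-201 in replicate 2, and by share of counts the coding Psma3-202 led with a mean of 27.0%, so no order can be given. Psmd11 and Psmf1 were led by coding transcripts, on TPM by Psmd11-213 at 37.5% and 36.6% and by Psmf1-202 at 44.7% and 46.1%. By share of counts other coding transcripts led, Psmd11-201 with a mean of 44.7% and Psmf1-201 with 59.4%. Psmd4, the most abundant member, was carried by a pair of coding transcripts, Psmd4-202 at 53.0% and 54.0% and Psmd4-201 at 40.0% and 37.5%.

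Transcripts of classes other than protein coding had a lower median share in proteasome genes than in others. They occur in 32 expressed members, with a median share of 8.29% and 6.57%, against 17.3% and 16.6% for other expressed genes that have them. By share of counts the gap was smaller, at 5.66% and 5.54% in members, against 7.64% and 7.28% in other genes. Retained-intron transcripts, in 23 members, held a median of 9.06% and 8.25%, against 11.8% and 11.4% over 3462 other genes. Among the activators, Psme2-209, a retained-intron transcript, held 29.1% and 28.0% of Psme2. Psme1-209, annotated for nonsense-mediated decay, held 30.9% and 14.9% of Psme1, on 522 and 127 counts. Psme3-203, a processed transcript, held 27.8% and 8.39% of Psme3 on 435 and 79.4 counts. The Psme2 share was alike in the libraries, while those of Psme1 and Psme3 were over 2 times larger in replicate 1. In the core, the retained-intron Psmb7-202 held 27.7% and 20.2% of Psmb7. Over the 32 members the share of other classes was higher in replicate 1 in 20, in replicate 2 in 11 and equal in 1, against 51% of other expressed genes that were higher in replicate 1.

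**Figure D4:**
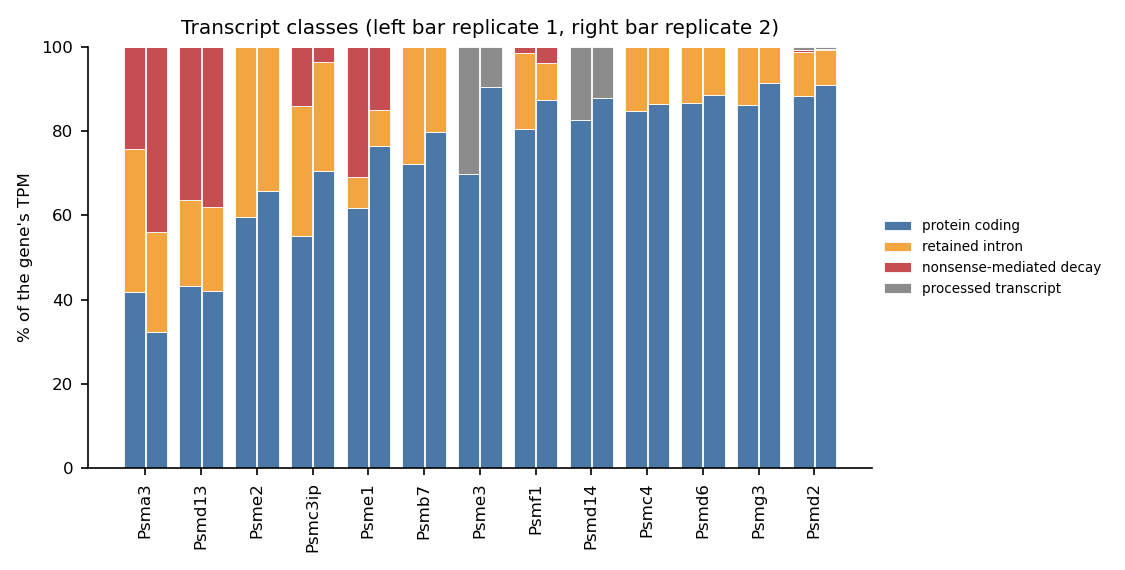
Percent of each gene's TPM by annotated transcript class in replicate 1 (left bar) and replicate 2 (right bar), for the expressed members in which other classes than protein coding held a mean of at least 10%. Psma3 and Psmd13 hold more in other classes than in coding ones, and Psme3 shows the widest gap between its bars.

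The members are spread over 16 chromosomes, and few lie together; the 3 neighbouring pairs within 20000 bp are Psmb5 with Psmb11, Psme1 with Psme2, and Psmb9 with Psmb8. A protein-coding gene starts in the opposite direction within 1000 bp of the start of 8 of the 50 members, or 16%, against 6.78% of all and 13.4% of expressed nuclear protein-coding genes. These are Psma2, Psma7, Psmb1, Psmc2, Psmc5, Psmd10, Psme2 and Psmg2, and the nearest is 32 bp from Psmc2. Psmb9 was not counted, although Tap1 starts in the opposite direction within its 5′ end. Exons of 12 members, or 24%, are overlapped by a gene on the opposite strand and those of 4, or 8%, by one on the same strand. No share over all genes is given for these counts, so they do not set the members apart. The opposite-strand overlaps include Psmd13, Psmb7 and Psme1, named for their transcript shares, and Psmb8 and Psmb9. A same-strand overlap lies in Psmb5, against which Psmb8 and Psmb11 were set. In such overlaps the origin of reads cannot be told apart.

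RefSeq promoter windows were available for 42 members, in 45 windows. The motif with the most unequal share against all promoters was CCGGAAGT. It lay in 22.2% of member windows, against 5.15% of all 21263 windows and 10.9% of those of expressed genes. The 9 genes that hold it are Psma6, Psmc1, Psmc2, Psmd6, Psmd12, Psmd13, Psme3, Psme4 and Psmg3. The interferon response core lay in 11.1%, against 3.35% of all and 2.73% of expressed windows, and its 5 genes were Psme1, Psmb3, Psmd4, Psmd9 and Psmg4. GATAA lay in 20% of member windows, against 22.5% of all and 16.0% of expressed ones, so its share was between these backgrounds. The palindrome of nuclear respiratory factor 1 (NRF1) was found in 15.6%, against 6.38% and 12.3%. The antioxidant response core lay in 4.44%, namely Psmd12 and Psme4, against 2.67% and 2.49%.

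Of the common elements, CCAAT lay in 33.3% of member windows, against 38.2% of all and 39.5% of expressed ones. GGGCGG lay in 53.3%, against 46.2% and 65.6%, and TATAAA in 8.89%, against 12.6% and 6.06%. Median GC content was 57.3% in member windows, against 56.3% in all and 61.3% in expressed ones, and the ratio of observed to expected CpG was 0.73, against 0.57 and 0.80. Matches describe letters in these windows and are no evidence of binding, and the motifs were chosen with the levels known.

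**Figure D5:**
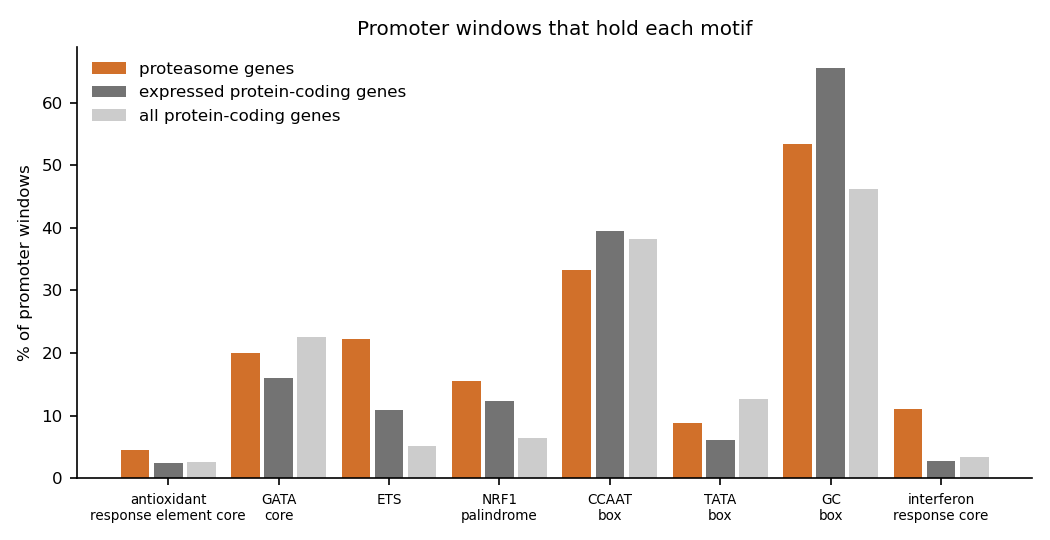
Percent of promoter windows with at least 1 match to each motif on either strand, for proteasome genes (orange, 45 windows), expressed protein-coding genes (dark grey, 7907 windows) and all protein-coding genes (light grey, 21263 windows). The orange bar is above both grey bars for the ETS, interferon response, NRF1 and antioxidant response motifs, and below both for the CCAAT box.

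Genes that work beside the proteasome were measured as lists of their own. Of 12 associated proteins without a Psm symbol, all reached 1 TPM in both libraries, against 36.3% of nuclear protein-coding genes. Their medians were 14.3 and 15.6 TPM. Adrm1, a ubiquitin receptor of the base, was at 14.1 and 15.9 TPM, and Sem1, the smallest lid subunit, at 21.8 and 17.2 TPM. The deubiquitinating enzymes Uchl5 and Usp14, which edit chains on the particle, were at 26.7 and 28.5 TPM and at 14.3 and 14.8 TPM. Ecpas, which tethers and remodels the particle, was at 19.4 and 17.2 TPM. Of the 7 shuttle factors that bring ubiquitinated proteins to the particle, 6 reached 1 TPM, with Ubqln1 the highest at 15.7 and 16.1 TPM and Ddi1 at 0 and 1 count.

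All 5 genes that control proteasome transcription reached 1 TPM. Nfe2l1, the factor that raises proteasome genes when the particle is inhibited, stood at 6.23 and 4.95 TPM, and its relative Nfe2l2 at 22.3 and 20.7 TPM. Vcp, the ATPase that extracts Nfe2l1 from the endoplasmic reticulum, stood at 40.1 and 41.2 TPM, and Ngly1, which removes its glycans, at 4.48 and 4.72 TPM. Of the MHC class I list, into which the immune core feeds, 7 of 11 genes reached 1 TPM in both libraries. Of 14 interferon-response genes 5 did. Among all nuclear protein-coding genes 36.3% reached that level, so the interferon count is near the background share. B2m, the light chain of class I, was at 494 and 383 TPM, while Nlrc5, which drives transcription of class I genes and Psmb9, had 1 and 5 counts. Irf1, a factor induced by interferon that acts on the same genes, was at 0.47 and 0.39 TPM.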

How the data were processed

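RNA was measured in 2 libraries of 1 group, so no comparison of conditions was possible. The authors deposited, per the file headers, expected counts, TPM, FPKM and the percent of gene TPM per transcript; FPKM, posterior mean TPM and counts not divided by length served as alternatives. Assembly mm10 and GENCODE M4 are named in the deposited text lists; program, aligner, versions and strand setting: not given in the sources used here. Gene symbols were joined from GENCODE M21 on unversioned identifiers. TPM under 0.1 was recomputed from count and effective length for ratios. Class differences are of median log2 TPM without a pseudocount. Replicate ratios used CPM with edgeR 4.0.16 (TMM, prior count 0.5, R 4.3.3), and DESeq2 1.42.0 gave alternative size factors. The step was run on simulated Poisson counts with changes well beyond 1.5-fold. That run does not test the rule near 1.5-fold or the spread between real libraries. All members and listed genes could be named. Members, lists and the lean between replicates were chosen with earlier results of these data known. Psma8 and 7 other members had no RefSeq promoter window. Values of a few listed genes are not reported here.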

Additional observations from a re-analysis of the deposited data

Results flagged for a closer look

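Reads were also found on a pseudogene of the family, outside the members. Psmb7-ps2, a transcribed processed pseudogene, had 7 counts in replicate 1 and 0 counts in replicate 2. The first is above the floor of 3 counts set here for a gene with no reads. The parent Psmb7 had 7151 and 5407 counts, and whether the 7 counts were reads of the parent was not tested. The other 3 named pseudogenes, Psmb5-ps, Psmb6-ps and Psmb6-ps2, had 1, 0 and 0 counts in replicate 1 and 0 in replicate 2.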

How the results depend on the processing

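Apart from leaving out a library, 41 values were labelled the same, 22 moved further and 3 turned in sign. The same meant within the replicate spread or within 1.5 times the main count. For the lean of the subunits between replicates it meant only that the sign was kept. With 2 libraries, leaving 1 out cannot move a mean beyond its SD, so those values are no sign of stability. The turned values all came from counts not divided by length: regulatory particle minus constitutive core 0.38, Psme2 to Psme1 -0.075 and Psme3 to Psme1 0.19 (log2). That setting also gave 1.42 for 26S subunits minus other expressed genes, -2.19 for the chaperones, -7.11 for Psmb9 to Psmb6, -4.81 for Psmb10 to Psmb7, 2.73 for Psme4 to Psme3 and 1.07 for the interquartile range of the subunits. Adding 1 to TPM gave 2.39 for 26S subunits, -5.04 for the immune core, -2.22 for the chaperones, -5.00, -4.35 and 1.39 for the Psmb9, Psmb10 and Psme4 ratios, and 0.79 for the interquartile range. Posterior mean TPM gave -0.19 for the regulatory particle, -7.10 for the immune core and -7.05 for Psmb9 to Psmb6. Means in place of medians gave 2.23 for 26S subunits, -0.20 for the regulatory particle, -2.24 for the chaperones and -1.26 for the activators. All genes with reads as the comparison gave 3.57 for 26S subunits. With no filter on low counts, 2 members differed 1.5-fold between replicates, Psmb11 and Psmb8, on 1 and 2 reads. The activator difference ranged from -0.59 to -0.08 when a library was left out. Of these, the cause was not tested beyond what a setting does by its construction.

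No paired analysis was possible because all samples form 1 group. Depth limits Psmb8, Psma8 and Psmb11 to bounds or to wide intervals on 1 or 2 counts, and with 2 replicates an SD is itself imprecise. Levels of RNA say nothing of protein or of assembled particles.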

Other observations

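Among genes that supply and activate ubiquitin, the tag that the proteasome reads, Rps27a, which encodes ubiquitin fused to a ribosomal protein, was at 118 and 106 TPM. Ubb, a polyubiquitin gene, was at 296 and 208 TPM. Reads of these genes and of their copies in the genome were not separated here, and the values are uncertain. Of the enzymes that activate ubiquitin, Uba1 stood at 54.6 and 57.3 TPM and Uba6 at 2.54 and 2.45 TPM.

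Other genes of class I antigen processing were uneven beside the low immune core. H2-D1, a class I heavy chain, was at 20.3 and 20.9 TPM, and H2-K1, another, at 0.01 and 0.1 TPM; these genes are similar in sequence and their values are uncertain. Tap2, which pairs with Tap1, was at 3.25 and 3.36 TPM, and Tapbp, which loads peptides, at 3.01 and 2.81 TPM. Calr, a chaperone of the endoplasmic reticulum that also assists class I folding, was at 80.2 and 73.1 TPM.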
